A study of Mus musculus with 2 samples.

Results

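Transcripts of 10 early response genes were examined in RNA of enriched splenic regulatory T cells (Treg cells), out of 20938 genes in the deposited tables. They comprise the mRNA decay factors Zfp36, Zfp36l1, Zfp36l2, Btg1 and Btg2, the immediate early response genes Ier2 and Ier3, and the dual-specificity phosphatases Dusp1, Dusp2 and Dusp5. The genes were found by symbol in the tables, and all 10 were present and had reads in both libraries. They were chosen by their higher levels in cKO than in control cells in these same libraries, so their levels and changes are a description and carry no test.

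Each genotype was represented by 1 RNA-seq library, from heterozygous Foxp3-Mettl14f/+ cKO mice or from their littermate controls, on day 7 after islet transplantation. In the cKO mice, Cre under the Foxp3 promoter removes 1 floxed allele of Mettl14, a subunit of the enzyme complex that writes N6-methyladenosine (m6A) on mRNA. The sample labels give the controls as wild type, whereas the methods name the littermate controls Mettl14f/f, with no Foxp3-Cre in the name. The labels name the cKO library KD and give its genotype as Foxp3 knockdown, which differs from the genotype in the methods that is used here. The recipients, on a C57BL/6J background, had streptozotocin-induced diabetes, received BALB/c islets and had no antibody treatment, and the Treg cells were enriched with a magnetic CD4+CD25+ kit. The number of mice behind each library is not stated in the sources used here. With 1 library per genotype there is no replicate check, and the libraries cannot be told apart from the genotypes.

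Depth was 20239325 recovered reads for control cells and 18327535 for cKO cells. Levels are the deposited values, in which the reads of a library have been divided by its size factor. Changes are log2 ratios, cKO to control, after 1 was added to each level, with exact 95% intervals that cover counting error only. Mettl14 had levels of 917 in control and 741 in cKO cells, a log2 change of -0.31 (95% interval -0.45 to -0.16), and the gene total cannot show which allele the reads came from. Foxp3, the defining Treg marker, had levels of 1497 and 1548, a change of 0.05 (-0.06 to 0.15). The summed level of 15 T cell core genes, used for a scaling described further on, had a change of -0.30 (-0.32 to -0.29). With those genes set equal, the lower value of Mettl14 all but disappears and the value of Foxp3 is higher.

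Most of the 10 genes encode brakes on signaling and on mRNA lifetime. ZFP36 proteins bind AU-rich elements in the 3′ UTR of cytokine and early response mRNAs and recruit the CCR4-NOT deadenylase, which shortens the poly(A) tail and starts decay. BTG proteins bind the same deadenylase through its catalytic subunits and are known for restraining proliferation and, in T cells, for maintaining quiescence. DUSP1, DUSP2 and DUSP5 are nuclear phosphatases that remove phosphate from activated MAP kinases, which closes a negative feedback loop because MAP kinase signaling induces their transcription. Most of these genes are compact, are transcribed within minutes of stimulation, and make mRNAs that are themselves short lived.

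AU-rich sequences are shown because the group contains proteins that bind such elements, and the longest form searched was found in 4 of the 10 mRNAs. Capitals mark the nonamer TTATTTATT, the preferred ZFP36 binding sequence, within the 3′ UTR of 1 GENCODE vM21 transcript per gene, searched on the mRNA strand. The sites lie in Zfp36 at chr7:28376953-28376977, in Zfp36l1 at chr12:80108169-80108193, in Zfp36l2 at chr17:84184916-84184940, and in Dusp1 at chr17:26506161-26506185 and chr17:26505872-26505896, all on the minus strand of GRCm38.
Zfp36: tgacgactTTATTTATTgtattaag
Zfp36l1: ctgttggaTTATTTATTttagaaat
Zfp36l2: tatttaacTTATTTATTatcttgtg
Dusp1, site nearer the stop codon: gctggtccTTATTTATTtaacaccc
Dusp1, site farther from the stop codon: ttttacctTTATTTATTtttgtgta

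The nonamer was present in all 3 ZFP36 family mRNAs of the group and occurred in 2 copies in Dusp1, 103 and 392 bases after the stop codon. It was in the 3′ UTR of 7.19% of 19710 mouse genes, and in 4.44% of those with a 3′ UTR from 500 to under 1000 bases, the length class of Zfp36 and Dusp1. From 1000 to under 2000 bases, the class of Zfp36l1 and Zfp36l2, the share was 8.40%. The shorter heptamer TATTTAT, which the nonamer contains, was in 7 of the 10 genes and in 26.7% of all genes, and the pentamer ATTTA, which lies within both, in 9 of 10 and in 63.5%. Ier3 had 4 copies of the heptamer in a 3′ UTR of 613 bases. Ier2, which encodes a nuclear early response protein, was the gene without an ATTTA pentamer. The median density of the pentamer was 3.31 per 1000 bases of 3′ UTR in the 10 genes and 1.19 in all genes. The sequence GGACT, the most common core at which m6A is written, was in the mRNA of 9 of the 10 genes, Dusp2 being the exception, and in that of 88.6% of all genes. The modification itself was not measured in these libraries. A match describes the letters of 1 annotated transcript and not a bound or modified site.

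The gene models had few exons. The 10 genes had a median of 2 exons, from 1 in Ier2 to 4 in the 3 DUSP genes, against 7 over 20351 genes with a coding transcript. Their transcript length did not stand apart, with a median of 2608 bases against 2689. Ier2 lies on chromosome 8 from 84661331 to 84662852 and Ier3 on chromosome 17 from 35821684 to 35822923. Btg1 lies on chromosome 10 from 96617006 to 96622809 and Btg2 on chromosome 1 from 134075170 to 134079120. Zfp36l2 lies on chromosome 17 from 84183931 to 84187947, and Zfp36l1 on chromosome 12 from 80107754 to 80113013. Zfp36 lies on chromosome 7 from 28376784 to 28380253. Dusp2 lies on chromosome 2 from 127336159 to 127338376 and Dusp5 on chromosome 19 from 53529109 to 53542431. Dusp1 is annotated on chromosome 17 from 26505590 to 26562128, where its span overlaps Ergic1 on the other strand by 640 bases. Ergic1 had levels of 1180.2 and 1128, a change of -0.07 (95% interval -0.19 to 0.06) whose sign turns when the summed reads of T cell core genes are set equal, a scaling described further on, and the strandedness of the reads is not given in the sources used here. Annotated noncoding genes on the opposite strand also overlap Zfp36, Zfp36l1, Zfp36l2 and Dusp5. Btg1b and Btg1c, the annotated copies of Btg1, were listed at 0 in both libraries.

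Levels of all 10 genes were higher in cKO than in control cells, and 8 of them (80%) passed 1.5-fold, while 0 were lower by that much. The methods give this fold threshold together with a second cutoff, which was not applied to these counts. Of 16659 genes tested, those whose 2 levels averaged 1 or more, 17.2% were higher by 1.5-fold or more and 24.2% lower. The direction of the 10 genes entered their choice, so nothing is read from this contrast with the background. Their median log2 change was 0.73, and that of all genes was -0.04. Past 2-fold were Zfp36 and Dusp1 alone among the 10, beside 10.3% of all genes.

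**Figure D1:**
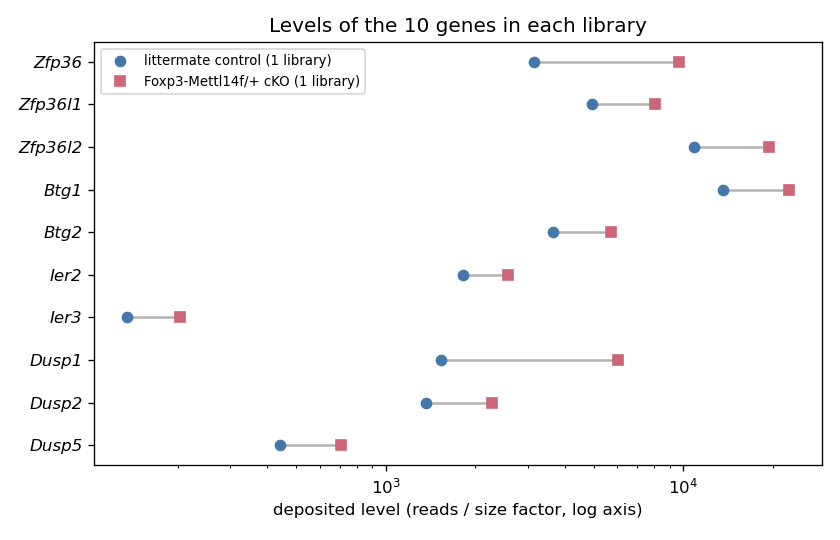
Deposited level of each of the 10 genes (reads divided by the size factor of the library, log axis) in the control library (circles) and the cKO library (squares), 1 library each. The cKO symbol lies to the right of the control symbol for all 10 genes, and the distance is longest for Dusp1 and Zfp36.

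Among the mRNA decay factors, the ZFP36 family was led by Zfp36l2 in level and by Zfp36 in change. Zfp36, which encodes tristetraprolin, the decay factor known for limiting tumor necrosis factor, had levels of 3151 in control and 9664 in cKO cells. This is a 3.07-fold higher level in cKO cells, a log2 change of 1.62 (95% interval 1.56 to 1.68), from 3257 and 8498 reads. Zfp36l1, a paralog that acts with Zfp36l2 in lymphocyte development and quiescence, had levels of 4916 and 8058, a change of 0.71 (0.66 to 0.77). Zfp36l2 had levels of 10826 and 19351, a change of 0.84 (0.80 to 0.87). The 3 paralogs were all higher in cKO cells, and the change of Zfp36 exceeded that of Zfp36l1 by 0.90 on the log2 scale (95% interval 0.83 to 0.98) and that of Zfp36l2 by 0.78 (0.71 to 0.85). These differences within a library do not depend on how the libraries are scaled. Zfp36l3, the fourth family gene, was listed at 0 in both libraries.

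The make-up of the family therefore differed between the libraries. Zfp36 held 16.7% of the family's reads in control cells (exact 95% interval 16.2 to 17.2) and 26.1% in cKO cells (25.6 to 26.6). Zfp36l2 held 57.3% (56.6 to 58.0) and 52.2% (51.7 to 52.7), and Zfp36l1 held 26.0% (25.4 to 26.6) and 21.7% (21.3 to 22.2). Zfp36l2 was the most read family gene in both libraries, while Zfp36 and Zfp36l1 exchanged places. The reads of Zfp36 were 0.641 times those of Zfp36l1 in control cells and 1.20 times in cKO cells.

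Of the BTG genes, which carry the antiproliferative domain that binds the deadenylase, Btg1 was the most abundant of all 10 genes by deposited level. Btg1 had levels of 13570 in control and 22636 in cKO cells, a change of 0.74 (95% interval 0.71 to 0.77). Btg2, also known as a target of p53, had levels of 3638 and 5717, a change of 0.65 (0.59 to 0.71). Their changes lay close together, and the difference was 0.09 (0.02 to 0.15). The other genes of the BTG and TOB family moved less. Tob2 had levels of 1592 and 2161, a change of 0.44, and Tob1 levels of 679 and 724, a change of 0.09. Btg3 had levels of 337 and 300.2, a change of -0.16 with an interval of -0.40 to 0.07. With T cell core genes set equal the value of Btg3 is above 0. Btg4, a germline gene, was listed at 0 in both libraries. Over the 5 family genes past the minimum level, 2 passed 1.5-fold, namely Btg1 and Btg2, and 0 were lower by that much.

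**Figure D2:**
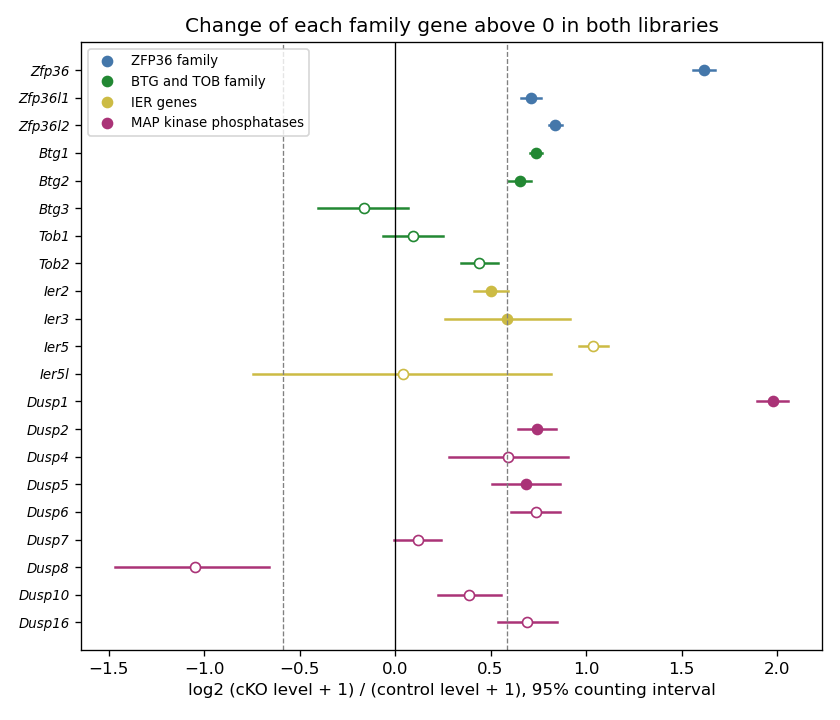
Log2 change (cKO to control, pseudocount of 1) with the exact 95% counting interval for each gene of the ZFP36, BTG and TOB, IER and MAP kinase phosphatase families that was above 0 in both libraries. Filled circles are the 10 genes described, open circles their other family members, and dashed lines mark 1.5-fold; Dusp1 and Zfp36 lie farthest to the right and Dusp8 farthest to the left.

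The IER genes had the smallest changes of the 10. Ier2 had levels of 1816 and 2571, 1.42-fold higher in cKO cells, a log2 change of 0.50 (95% interval 0.41 to 0.59). Ier3, an early response gene linked to cell survival and a target of NF-kappaB, was the least abundant of the 10, with levels of 135 and 204 from 140 and 179 reads. Its change was 0.58 (0.26 to 0.92), just under the 1.5-fold threshold of 0.585, and with a pseudocount of 0.1 it was 0.59 and past it. The counting intervals of Ier2, Ier3 and, among the 8 genes past the threshold, Dusp5 hold values on both sides of it, so at this depth these 3 genes cannot be placed. Ier5, which is outside the 10 and belongs to the same loosely defined set, had levels of 2107 and 4323, a change of 1.04 (0.96 to 1.11), and exceeded both. Ier5l had 32 and 28 reads and a change of 0.04 (-0.74 to 0.82).

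The MAP kinase phosphatases had the widest range. Dusp1, which acts mainly on the stress kinases p38 and JNK, had levels of 1536 in control and 6050 in cKO cells, from 1588 and 5320 reads. This is a 3.94-fold higher level in cKO cells, a log2 change of 1.98 (95% interval 1.90 to 2.06), the largest of the 10, and 5.19% of all genes tested had a change at least as high. Dusp2, an inducible phosphatase of immune cells, had levels of 1364 and 2281, a change of 0.74 (0.64 to 0.84). Dusp5, which acts on ERK, had levels of 440.2 and 707, a change of 0.68 (0.51 to 0.86). The changes of Dusp2 and Dusp5 lay 0.06 apart (counting interval -0.14 to 0.26), while the change of Dusp1 was above that of Dusp2 by 1.24 (1.11 to 1.36) and Dusp5 by 1.29 (1.10 to 1.49). Dusp1 and Zfp36, the pair with the largest changes, lay 0.36 apart (0.26 to 0.46).

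Of the 10 catalytically active MAP kinase phosphatase genes listed, 6 were higher by 1.5-fold or more and 2 lower. Dusp16, a phosphatase of JNK and p38, had levels of 563 and 909.7, a change of 0.69 with an interval of 0.54 to 0.85 that holds the threshold. Dusp6, the cytoplasmic ERK phosphatase, had levels of 838 and 1395, a change of 0.74. Dusp4, a nuclear ERK phosphatase, had 156 and 200 reads and a change of 0.59 (95% interval 0.28 to 0.90), barely past the threshold. Dusp10 and Dusp7 had changes of 0.39 and 0.12. Dusp8, a further JNK and p38 phosphatase, had levels of 175 and 84.1, a change of -1.05 (-1.47 to -0.66). Dusp9 had 16 reads in control cells and 0 in cKO cells, at least 4.54-fold lower against a floor of 3 reads in the cKO library. Dusp1 held 22.8% of the reads of this family in control cells (exact 95% interval 21.8 to 23.8) and 44.5% in cKO cells (43.7 to 45.4). Dusp7 went from 16.2% to 8.72% of the family's reads although its own level was nearly the same. The atypical dual-specificity phosphatases, mostly small enzymes without the kinase-binding domain, had at most 421 reads in either library apart from Dusp11. Dusp11 had 3992 and 3656 reads and a change of 0.11. The summed level of these phosphatases was 4981 in control and 5497 in cKO cells. Of the 13 past the minimum level, 1 was higher by 1.5-fold or more, namely Dusp3 at 1.15, and 6 had a value past it downward (Dusp13, Dusp14, Dusp18, Dusp19, Dusp21 and Dusp26), none with more than 79 reads in control cells. Dusp21 had 5 and 0 reads, which shows a level at least 1.42-fold lower and so does not place it past 1.5-fold. The interval of Dusp18 holds 0, and that of Dusp19 holds the threshold. Their median was -0.51, and -0.50 with genes at 0 reads set to their bound, but -0.05 with a minimum mean level of 10 and -0.21 with T cell core genes set equal.

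**Figure D3:**
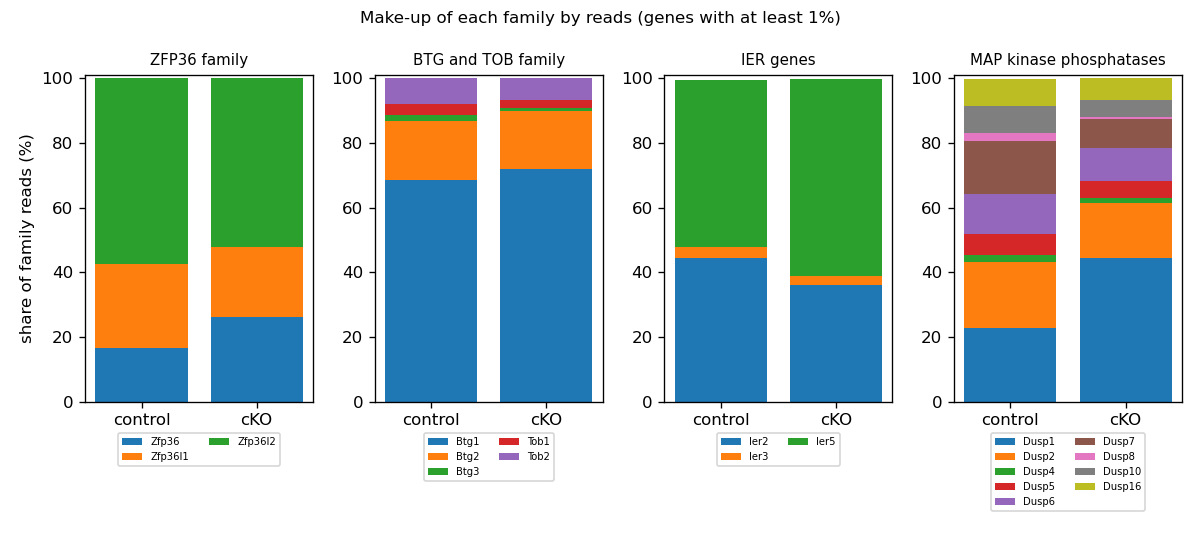
Share of each family's reads (in %, stacked bars from 0) held by its genes with at least 1% in either library, for the control and cKO libraries. The Zfp36 segment is 16.7% for control and 26.1% for cKO cells, and the Dusp1 segment is 22.8% and 44.5%.

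To compare levels between genes, reads were scaled to transcript length and library total (RPKM). Zfp36l2 had the highest RPKM of the 10 in both libraries, at 157 and 263, followed by Btg1 at 139 and 217. Dusp1 had an RPKM of 39.4 in control cells, below 7 of the others, and 146 in cKO cells, below 3 of them. Ier3 was lowest in both, at 6.12 and 8.64, and Dusp5 was next, at 9.09 and 13.7. The place of Zfp36 depends on the transcript model. With the GENCODE model of 2790 bases its RPKM was 57.7 and 166, and with the RefSeq start, 1025 bases farther downstream, 91.2 and 263.

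Promoters are shown for the genes in which recognition sequences of the early response factors CREB and SRF were found, since these factors are known to relay kinase signaling to early response genes. The 250 bases before the RefSeq start were searched in 8 of the 10 genes, on both strands except for TATAAA. Ier2 and Zfp36l2 had no entry in the RefSeq table used. The cAMP response element TGACGTCA was in Dusp1 and Btg2 and in 1.55% of 32851 mouse promoter windows. The CArG box, the SRF recognition sequence, was in Zfp36 and Dusp5 and in 1.47%. Capitals mark these sequences and the core TGACG or its complement CGTCA, which the response element contains. The stretches are chr17:26508573-26508672 (minus strand) for Dusp1, chr1:134079256-134079355 (minus) for Btg2, chr19:53529035-53529104 (plus) for Dusp5 and chr7:28379267-28379296 (minus) for Zfp36, in GRCm38.p6 from RefSeq.
Dusp1: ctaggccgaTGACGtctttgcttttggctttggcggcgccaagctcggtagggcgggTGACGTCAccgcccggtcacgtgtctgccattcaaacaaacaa
Btg2: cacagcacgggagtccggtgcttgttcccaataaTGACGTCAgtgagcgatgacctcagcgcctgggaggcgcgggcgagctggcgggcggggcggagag
Dusp5: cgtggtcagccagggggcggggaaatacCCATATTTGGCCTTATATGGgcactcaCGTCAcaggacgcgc
Zfp36: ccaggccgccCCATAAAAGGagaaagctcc

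In Dusp5 a pair of CArG boxes stood next to each other, and in Zfp36 the box began 58 bases before the RefSeq start, inside a longer GENCODE first exon. The core TGACG, within the full response element or outside it, was in 4 of the 8 promoters and in 17.8% of all. The SP1 sequence GGGCGG was in 7 of 8 and in 32.7%. The AP-1 sequence TGANTCA was in Zfp36l1 only, at 6.75% of all promoters, and an NF-kappaB site was in Ier3 only, at 3.90%. TATAAA, searched on the strand of the gene only, was in Btg1 and Zfp36l1 and in 7.59% of all. The genes that hold a cAMP response element include the largest change (Dusp1) and one of the smaller ones (Btg2), and likewise for the CArG box (Zfp36 and Dusp5). These matches describe letters within the window and do not show a bound factor. Of 9 genes for SRF, ETS and CREB factors and their partners, 1 had a value past 1.5-fold upward, Elk1 at 0.61, and 0 were lower, with a median of 0.27. The counting interval of Elk1, 0.40 to 0.83, holds the threshold. The SRF coactivator gene Mrtfa and the ETS gene Elk3 had changes of 0.44 and 0.39. Srf, Creb1 and Atf1 had changes of -0.11, -0.21 and -0.06, all of which are above 0 with T cell core genes set equal.

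Genes for the kinases that the DUSP proteins switch off moved in both directions, with a median of -0.02. Of the 10 MAP kinase genes, 2 had values past 1.5-fold upward, Mapk7 (ERK5) at 0.98 and Mapk13 (p38 delta) at 0.67. The counting interval of Mapk13, 0.49 to 0.85, holds the threshold. Downward, 1 passed it, Mapk10, with 11 and 0 reads. Mapk11 (p38 beta) had a change of 0.51, and Mapk9 (JNK2), Mapk8 (JNK1) and Mapk12 had changes of -0.31, -0.17 and -0.16, of which the last 2 are above 0 with T cell core genes set equal. Mapk14 (p38 alpha) had levels of 3807 and 3830, a change of 0.01. None of the 7 MAP kinase kinase genes passed 1.5-fold in either direction on the deposited scale, and their changes ranged from -0.19 for Map2k3 to 0.37 for Map2k1 with a median of 0.06. Among 7 kinases activated by MAP kinases, Rps6ka5 (MSK1), which phosphorylates CREB, had a value past 1.5-fold, at 0.63, and the median was 0.26. The counting interval of Rps6ka5, 0.46 to 0.80, holds the threshold. Rps6ka3 (RSK2) had a change of 0.54, and Mapkapk2, the kinase that phosphorylates and inactivates tristetraprolin, a change of 0.34 (95% interval 0.27 to 0.41).

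The deadenylation machinery that ZFP36 and BTG proteins recruit lay close to the median of all genes. Of 15 genes for CCR4-NOT subunits and other deadenylation factors, 0 passed 1.5-fold in either direction on the deposited scale, with a median of 0.02. Cnot11 and Pan2 had the highest changes, at 0.51 and 0.43, and Cnot9, Cnot10 and Cnot4 the lowest, at -0.26, -0.25 and -0.21, which are above 0 with T cell core genes set equal. Cnot1, the scaffold, had levels of 11993 and 11768, and Cnot7, a catalytic subunit bound by BTG proteins, levels of 1052 and 1272. Of 17 other RNA-binding proteins that set mRNA stability, 2 were higher by 1.5-fold or more, Zc3h12a (Regnase-1, which cleaves cytokine mRNAs) at 0.90 and its paralog Zc3h12c at 1.40. Zc3h12b was lower, at -1.24 from 137 and 49 reads, and the median was 0.04. Rc3h1, which encodes Roquin-1, had a change of 0.00 (95% interval -0.06 to 0.06), while Elavl1, whose product HuR stabilizes AU-rich mRNAs, had a change of -0.17. Khsrp and Hnrnpd, whose products bind AU-rich elements, had changes of -0.26 and -0.28, and these 3 values are above 0 with T cell core genes set equal.

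Known AU-rich element transcripts did not move in 1 direction. Of the 19 past the minimum level, 7 were higher by 1.5-fold or more and 5 had a value past it downward, with a median of 0.18. The higher ones included the chemokine gene Cxcl2, from 23 to 447 reads with a change of 4.45 (95% interval 3.91 to 5.19), and Ptgs2, which encodes cyclooxygenase-2, from 41 to 565 reads with a change of 3.98 (3.56 to 4.51). Il1b had 1185 and 4199 reads and a change of 2.06 (1.97 to 2.15), and Fos a change of 1.93. Lif and Ccl3 had changes of 1.98 and 1.07, and Il23a had 0 and 14 reads, at least 5.49-fold higher against a floor of 3 reads. Tnf, the best known target of tristetraprolin, had levels of 480 and 436, a change of -0.14 (-0.34 to 0.06), and its sign turns with T cell core genes set equal. Il6 had 26 and 0 reads, at least 7.37-fold lower, and Ccl2 had 53 and 11 reads and a change of -1.95 (-3.12 to -1.08). Il10 had 46 and 22 reads and a change of -0.81 (-1.63 to -0.07), and Il2 had 9 and 0 reads, at least 2.55-fold lower, and Cxcl1 had 4 and 0 reads, at least 1.13-fold lower, which does not place it past 1.5-fold. Myc, Notch1 and Pim1, among the most read genes of this list, had changes of 0.27, 0.19 and -0.02, the last of which turns sign with T cell core genes set equal.

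Markers of B cells and macrophages were higher in the same library as the 10 genes. All 11 B cell markers found passed 1.5-fold, and their summed level was 7919 in control and 43044 in cKO cells. All 14 macrophage markers passed it as well, with summed levels of 26599 and 57743, and Marco was the 1 marker at 0, in control cells. Of 10 CD8 T and NK cell markers 6 were higher, with summed levels of 5672 and 11093, and of 13 granulocyte markers 4 were higher and 3 lower, with summed levels of 238687 and 327376. Of 8 dendritic cell markers 2 were higher, with summed levels of 3034 and 3919. Among 15 T cell core genes Cd3g and Cd4 were lower by 1.5-fold or more and 0 were higher, with summed levels of 71785 and 58234. Of 10 Treg genes 2 were higher (Il2ra and Lrrc32) and 2 lower (Ikzf4 and Tnfrsf4), with summed levels of 9127 and 9664. The counting intervals of Cd4, Il2ra, Ikzf4 and Tnfrsf4 hold the 1.5-fold threshold. Of 12 erythroid markers 7 were lower and 1 higher, with summed levels of 34353 and 22276. The higher one was Hbb-bs, with 3 reads in control and 2626 in cKO cells, while Hbb-bt had 776 and 634 reads. Apart from Marco, no marker in these 8 lists was at 0 in either library. In both libraries the summed level of the granulocyte markers exceeded those of the T cell core genes and of the Treg genes. Both libraries thus hold RNA of cells other than Treg cells, although the paper reports by flow cytometry that most isolated cells were Foxp3+. Levels given here for control or cKO cells are those of the whole preparation. The 10 genes are expressed in many of these cell types, and the part of cell composition in their higher levels was not tested. In bulk RNA, more cells of a type and more transcript per cell cannot be told apart.

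**Figure D4:**
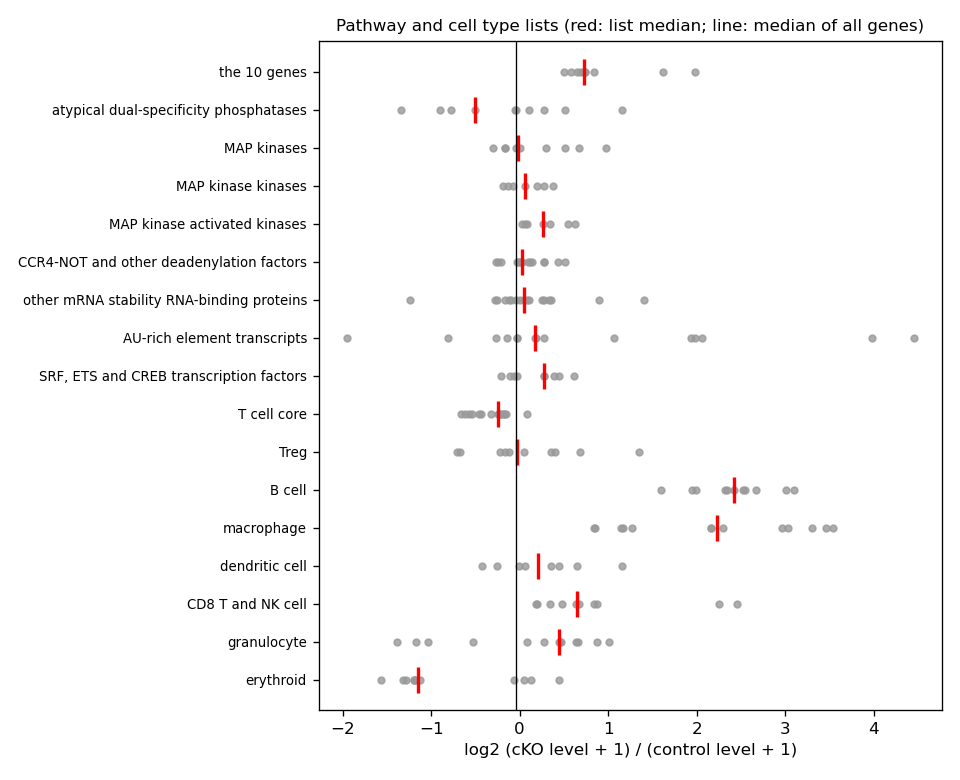
Log2 change (cKO over control) of single genes (grey points, genes above 0 in both libraries and within 6 of 0) in the 10 genes described and in each pathway and cell type list, with the list median (red) and the median of all genes, -0.04 (vertical line). The 10 genes center on 0.73 and the deadenylation factors on 0.02. The list medians of the B cell and macrophage markers, 2.42 and 2.23, lie farthest to the right. The erythroid gene Hbb-bs is outside this range and is not drawn.

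The size of the change depends on how the libraries are set equal. With the summed level of the 15 T cell core genes set equal between genotypes, the median of all genes was 0.26 in place of -0.04. All 10 genes passed 1.5-fold on that scale, beside 28.2% of all genes tested, against 17.2% on the deposited scale. On that scale Ier2 had a change of 0.80, Ier3 of 0.88, Dusp1 of 2.28 and Zfp36 of 1.92. The summed level of the 10 Treg genes had a change of 0.08 (0.04 to 0.12), opposite in sign to that of the T cell core genes. A scaling with the Treg genes set equal was not tested. With total reads set equal, 7 of the 10 passed 1.5-fold, beside 15.1% of all genes tested, and Btg2 at 0.56 fell short. Relative to the median of all genes, the median of the 10 genes was higher by 0.77 on the deposited scale and by 0.77 with T cell core genes set equal. A scaling shifts all genes by nearly the same amount, so this difference had to stay the same and tests nothing. The medians of the deadenylation factors, the MAP kinases and the other mRNA stability proteins moved with the scaling as well, to 0.32, 0.29 and 0.35 with T cell core genes set equal and to -0.07, -0.11 and -0.05 with total reads set equal. No gene of the 10 changed sign under any of the 5 scalings, whose shifts were smaller than the smallest change of the 10, 0.50 for Ier2.

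**Figure D5:**
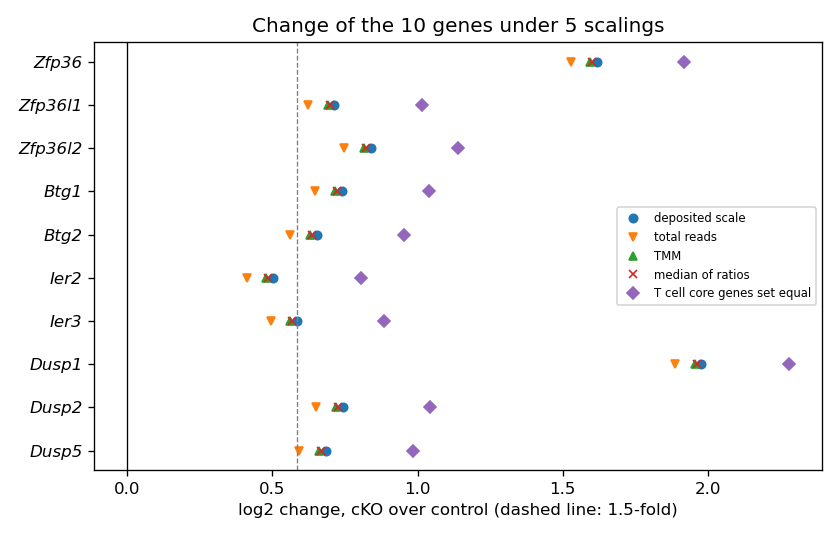
Log2 change (cKO over control) of each of the 10 genes on the deposited scale and with 4 other scalings of the libraries; the dashed line marks 1.5-fold. All symbols lie to the right of 0, and the diamonds (T cell core genes set equal) lie farthest to the right, from 0.80 for Ier2 to 2.28 for Dusp1.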

How the data were processed

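The authors sequenced mRNA on an Illumina instrument and aligned reads to mm10 with TopHat according to the methods, whereas the submitters' processing notes list bcl2fastq 2.0, STAR, StringTie and DESeq2 without roles. The counting step and annotation are not given in the sources used here. The deposited values are a signal of 1 value per gene, namely counts of reads scaled by a single factor in each library: 100% of them came out whole (tolerance 0.001) after division by the lowest value above 0, which recovered the reads. The 10 genes and all gene lists were chosen with earlier results of these data known. The text names all 10 genes and their families, and from other pathway lists genes past 1.5-fold or among the 3 highest or lowest changes. Dusp11, Mapk14, Cnot1, Rc3h1, Elavl1, Tnf, Myc, Notch1, Pim1, Ergic1 and genes of the cell type lists were named after their values were seen. Ratios used a pseudocount of 1, a minimum mean level of 1 and a 1.5-fold threshold; intervals are exact Clopper-Pearson intervals at 95%, except that differences between the changes of 2 genes use a normal interval on log read ratios. Reads carry no molecular identifiers, so intervals and floors cover counting error only. No p-value is given for the 10 genes. An exact binomial test on recovered reads, which compares the 2 libraries only, was applied to 14863 genes with at least 10 reads. Transcripts were taken from GENCODE vM21 (GRCm38), 1 per gene. Mkl1 and Mkl2 were read as Mrtfa and Mrtfb; Trac, Trbc1, Trbc2, Ighm and Ighd were not matched. Steps were tested on simulated data. Python 3.11.15, numpy 2.4.6, scipy 1.17.1, pandas 2.3.3, matplotlib 3.10.9, R 4.3.3, edgeR 4.0.16 and DESeq2 1.42.0 were used.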

Additional observations from a re-analysis of the deposited data

How the results depend on the processing

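No paired analysis was possible because there is a single library of each genotype, and none could be left out for the same reason. With T cell core genes set equal, the 10 genes had a median log2 change of 1.03 and 4695 genes were at least 1.5-fold higher, so that 59.3% of the changed genes were higher against 41.6% on the deposited scale. With total reads set equal the median of the 10 genes was 0.64. A 2-fold threshold left 2 of the 10 genes and 1722 genes higher, and a minimum mean level of 10 left 2035 genes lower, with 50.9% of the changed genes higher. The TMM and median-of-ratios scalings, pseudocounts of 0.1 and 5, and the absence of a filter kept the count of higher genes among the 10 between 8 and 9. The share of all genes higher by 1.5-fold lay between 13.8% and 17.3% in these settings. The exact binomial test on recovered reads, chosen after seeing the data, called 2126 genes higher and 2688 lower at an adjusted p under 0.1 and 1.5-fold, and it compares the 2 libraries and not the genotypes. Depth limits Ier3 most, with 140 and 179 reads.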
